A study of Mus musculus with 9 samples.

Results

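The genes described here are 10 genes of the lipid-laden macrophages that clear and repair injured tissue: Trem2, Gpnmb, Apoe, Fabp5, Lpl, Plin2, Ctsd, Cd63, Spp1 and Lgals3. They were chosen by name, as the rows of the gene count table that carry their Ensembl identifiers, and they are 10 of 54532 genes in that table. RNA was sequenced from injured tibialis anterior muscle of C57/BL6J mice in 9 libraries, 3 in each of 3 groups. Young PBS libraries came from mice of 4 months and old PBS libraries from mice of 24 months, both given PBS, the carrier solution. Old rMETRNL libraries came from mice of 24 months given recombinant Meteorin-like protein, a secreted factor made by macrophages in injured muscle. All muscles had been damaged with barium chloride, a salt that kills muscle fibres, and then injected 3 times with PBS or rMETRNL. No group was left uninjured and no young mice received rMETRNL, so every difference below is one between injured muscles. The dose is given both as 0.1 ug and as 0.1 ng in the sources used here. The sample labels describe a digested cell suspension taken on day 4, while the study's text describes this muscle RNA at day 8, so neither the day nor the preparation is settled.

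Macrophages that enter damaged muscle engulf dead fibres and take up large amounts of membrane lipid and cholesterol. The receptor Trem2 binds lipids and lipoproteins and signals through the adaptor Tyrobp, and cells that have engulfed much lipid raise genes for lipid binding, lysosomal digestion and export. The same group of genes is known from foam cells of the arterial wall, from adipose tissue macrophages and from microglia around plaques. In muscle repair, such cells follow the early inflammatory macrophages. Several of the genes are also made by other cells: Lpl by muscle fibres and adipocytes, Apoe by liver and astrocytes, and Ctsd and Cd63 by nearly every cell.

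Each gene was counted well in every library. The lowest count of any of the 10 genes was 208 and the highest 53785, in libraries of 16238700 to 22522560 counts. The 10 genes together took between 0.193% and 0.407% of a library's counts. Levels are given as CPM, the count scaled to the size of its library. Per kilobase of exon, the mean level was highest for Apoe at 806 CPM per kb, followed by Ctsd at 131 and Cd63 at 58.8, and it was lowest for Trem2 at 7.88.

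Promoter sequences show what lies just upstream of the genes. RefSeq windows of 300 bases, from 250 before to 50 after the transcription start on GRCm38.p6, were matched for 8 of the 10 genes, in 11 windows, and not for Fabp5 and Lpl. The 4 windows below hold matches to motifs of factors that macrophages use, printed 5′ to 3′ on the strand of the gene with matches on either strand in capitals. They are Trem2 (chr17:48346151-48346450, plus strand), Gpnmb (chr6:49036268-49036567, plus strand), Spp1 (chr5:104434861-104435160, plus strand) and Ctsd (chr7:142387778-142388077, minus strand).
Trem2: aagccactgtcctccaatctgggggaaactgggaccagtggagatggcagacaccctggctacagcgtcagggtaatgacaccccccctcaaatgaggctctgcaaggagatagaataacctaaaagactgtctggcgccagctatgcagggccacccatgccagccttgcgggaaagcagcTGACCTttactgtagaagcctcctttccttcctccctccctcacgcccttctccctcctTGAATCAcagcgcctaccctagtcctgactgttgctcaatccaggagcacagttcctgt
Gpnmb: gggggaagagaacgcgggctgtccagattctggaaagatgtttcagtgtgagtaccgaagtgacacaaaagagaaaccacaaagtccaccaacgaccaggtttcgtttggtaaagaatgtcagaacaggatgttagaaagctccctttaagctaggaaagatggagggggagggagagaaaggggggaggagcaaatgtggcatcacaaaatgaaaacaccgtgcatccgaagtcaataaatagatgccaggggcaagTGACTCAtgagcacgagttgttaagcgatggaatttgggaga
Spp1: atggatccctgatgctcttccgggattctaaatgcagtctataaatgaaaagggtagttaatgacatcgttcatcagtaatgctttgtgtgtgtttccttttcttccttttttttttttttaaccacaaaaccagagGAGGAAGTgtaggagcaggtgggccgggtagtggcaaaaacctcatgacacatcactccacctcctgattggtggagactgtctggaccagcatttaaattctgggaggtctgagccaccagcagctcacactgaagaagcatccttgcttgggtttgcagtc
Ctsd: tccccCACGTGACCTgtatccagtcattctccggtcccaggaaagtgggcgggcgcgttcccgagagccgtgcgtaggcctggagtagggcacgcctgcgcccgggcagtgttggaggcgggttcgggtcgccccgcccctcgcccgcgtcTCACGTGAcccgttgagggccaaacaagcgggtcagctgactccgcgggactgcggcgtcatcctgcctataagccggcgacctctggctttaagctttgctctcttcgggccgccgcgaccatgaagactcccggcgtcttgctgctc

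The motif TGANTCA of AP-1, the Fos and Jun dimer, stood 9 bases before the start of Trem2, at position -9, and at position 9 after the start of Gpnmb. It was found in both those windows among the 11, and in 7.81% of all 32851 RefSeq windows. The letters GAGGAAGT, bound by the myeloid factor PU.1, began at position -113 in Spp1 and occur in 3.20% of all windows. The E-box CACGTG was found in Ctsd and Plin2 and in 7.15% of windows. The longer form TCACGTGA, bound by TFEB and MITF, the factors that switch on lysosomal genes, was found at position -99 of Ctsd and in 0.974% of windows. It contains an E-box. The letters AGGTCA, recognised by nuclear receptors, were found in Trem2, Plin2 and Ctsd and in 16.3% of windows, and the match in Ctsd overlaps the other E-box there. These are matches of letters on both strands and no binding was measured.

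The libraries were first checked for the cells they hold. Of 20 macrophage markers, such as Adgre1 (the F4/80 antigen), Csf1r and Cd68, all were detected in each library, and their summed level was 2190 to 2550 CPM in young PBS, 1574 to 2421 in old PBS and 2352 to 2715 in old rMETRNL. Mature muscle fibre genes summed to 76060 to 126719 CPM. The old PBS group was the most uneven: its genes of new fibres summed to 246, 758 and 3266 CPM in old PBS 4, 2 and 3, against 727 to 1328 in the other libraries. Old PBS libraries also held transcripts of brain and liver. Snap25, a neuronal gene, was at 14.9, 5.46 and 25.5 CPM and Alb, the liver albumin gene, at 64.3, 22.2 and 1.57 CPM in old PBS 2, 3 and 4, while in the other 6 libraries Snap25 was at 0 and Alb at no more than 0.161 CPM. Snap25 and Alb thus set apart the same libraries as the old PBS label. In differences from old PBS, age or rMETRNL cannot be told apart from whatever brought these transcripts, which was not tested. In bulk RNA, fewer cells of a type and less RNA per cell cannot be told apart. Nothing in the labels ties a library to a single animal, so p-values measure the spread between these libraries, which may be technical.

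The first comparison asked how the old injured muscle differed from the young one. In old PBS, 8 of the 10 genes had a lower mean log2 level than in young PBS and 2, Lpl and Plin2, a higher one. None of the 10 passed an adjusted p of 0.05 in edgeR's quasi-likelihood test, where 0.0643% of 15560 tested genes passed. The median log2 fold change of the 10 genes was -0.43, beside 0.01 over all tested genes. At an unadjusted p of 0.05, 3 of the 10 genes were lower, Fabp5, Spp1 and Lgals3, beside 2.42% of all genes tested that were lower. DESeq2 called 1 of the 10, Fabp5, where it called 1.41% of genes. In 3 genes, Fabp5, Spp1 and Cd63, all old PBS libraries were below all young ones, which 5.25% of tested genes also showed.

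The second comparison set old rMETRNL against old PBS, with the same old PBS libraries as the reference. In old rMETRNL, 7 of the 10 genes had a higher mean log2 level than in old PBS and 3, Lpl, Plin2 and Ctsd, a lower one. Again none of the 10 passed an adjusted p of 0.05 in edgeR, where 0.108% of 15682 genes passed. The median log2 fold change of the 10 genes was 0.42, beside -0.01 over all tested genes. At an unadjusted p of 0.05, 4 of the 10 were higher, Fabp5, Spp1, Trem2 and Lgals3, beside 3.51% of all genes tested. DESeq2 called Fabp5, where it called 1.84% of genes. For Fabp5 and Cd63 the old rMETRNL libraries all lay above the 3 old PBS ones, as for 6.99% of tested genes. Both comparisons use the 3 old PBS libraries, so a low or high value there enters each of them with opposite sign.

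The third comparison set old rMETRNL against young PBS, which share no library. No gene of the 10 passed the adjusted threshold by edgeR or by DESeq2, and neither test called any gene at all, 0% of those tested. At an unadjusted p of 0.05, none of the 10 passed in edgeR beside 2.41% of all genes. Log2 fold changes of the 10 genes lay between -0.24 and 0.24, with a median of 0.03. Only Ctsd had groups that did not overlap, being lower in every old rMETRNL library, as were 2.96% of tested genes.

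**Figure D1:**
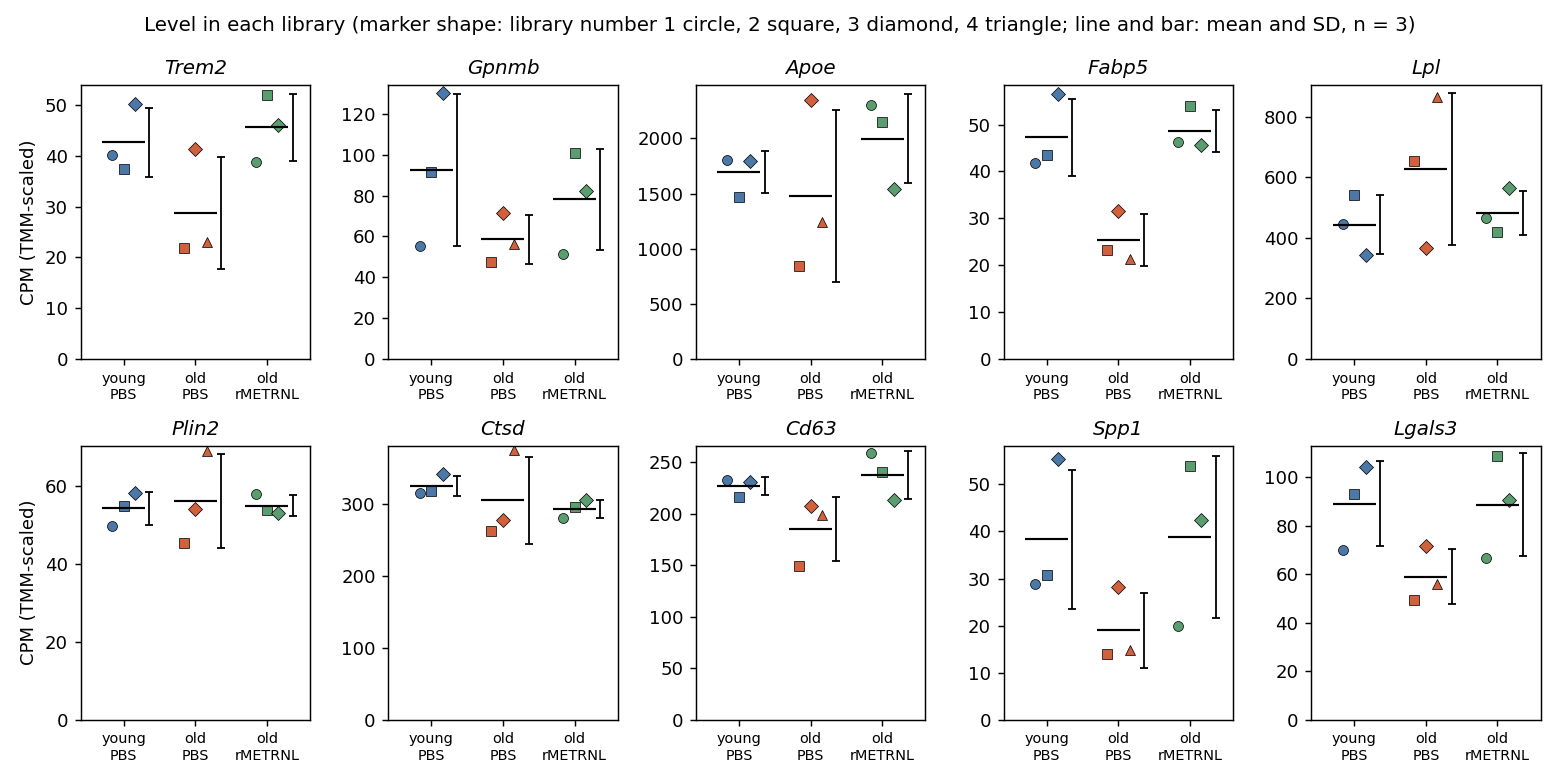
Level of each of the 10 genes in CPM (vertical axis, from 0) in young PBS, old PBS and old rMETRNL libraries, 1 point per library, with the group mean as a line and the SD as a bar (n = 3). The 3 old PBS libraries of Fabp5 sit between 21.3 and 31.6 CPM, below all 6 others, while in Lpl 2 of them sit highest.

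Trem2 (ENSMUSG00000023992) is the lipid-sensing receptor after which this macrophage state is often named. Its level was 40.2, 37.5 and 50.2 CPM in young PBS libraries 1, 2 and 3. In old PBS 2, 3 and 4 it was 21.9, 41.4 and 23.0 CPM, and in old rMETRNL 1, 2 and 3 it was 38.8, 52.0 and 46.1 CPM. Old PBS 2 and 4 were below every other library, while old PBS 3 lay inside both other groups. The log2 fold change was -0.57 ± 0.26 (SE, n = 3 per group) in old against young PBS, with an unadjusted p of 0.0612 and an adjusted p of 0.876 in edgeR. In old rMETRNL against old PBS it was 0.66 ± 0.26, with an unadjusted p of 0.0315 and an adjusted p of 0.552 in edgeR.

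Gpnmb (ENSMUSG00000029816) encodes a glycoprotein of the lysosome and cell surface that lipid-loaded macrophages make in large amounts. The levels were 55.6, 91.5 and 130 CPM in young PBS, 47.7, 71.6 and 56.3 CPM in old PBS, and 51.3, 101 and 82.4 CPM in old rMETRNL. The groups overlapped in each comparison, because young PBS 1 and old rMETRNL 1 were as low as the old PBS libraries. The log2 fold change was -0.66 ± 0.30 in old against young PBS (edgeR adjusted p = 0.874) and 0.41 ± 0.26 in old rMETRNL against old PBS (edgeR adjusted p = 0.721). Without young PBS 3 the first was -0.33, and without old rMETRNL 2 the second was 0.19.

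Among the lipid-handling genes, Fabp5 (ENSMUSG00000027533) differed most. It encodes a fatty acid binding protein that carries lipids inside macrophages and also in endothelial and skin cells. Its level was 41.8, 43.4 and 56.6 CPM in young PBS, 23.2, 31.6 and 21.3 CPM in old PBS, and 46.3, 53.9 and 45.7 CPM in old rMETRNL. All 3 old PBS libraries were below the other 6. The mean was 47.3 ± 8.14 CPM (SD, n = 3) in young PBS, 25.4 ± 5.46 in old PBS and 48.6 ± 4.57 in old rMETRNL. DESeq2 called both differences from old PBS, with an adjusted p of 0.0194 for young PBS and 0.00478 for old rMETRNL. In edgeR the log2 fold changes were -0.90 ± 0.21 and 0.93 ± 0.19 (SE), with unadjusted p of 0.0021 and 0.000815, and the adjusted p were 0.232 and 0.116. The call of Fabp5 therefore differed between the tools.

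Apoe (ENSMUSG00000002985), the apolipoprotein that carries cholesterol out of macrophages, was the most abundant of the 10 genes. Its level was 1807, 1472 and 1797 CPM in young PBS, and 2305, 2145 and 1541 CPM in old rMETRNL. The old PBS libraries stood at 842, 2349 and 1243 CPM, so they held both the lowest and the highest level of the 9. The log2 fold changes were -0.20 ± 0.37 and 0.43 ± 0.39 in the first and second comparisons, with adjusted p of 0.994 and 0.792 in edgeR. Apoe is also made in liver and astrocytes, whose transcripts were present in all 3 old PBS libraries. Alb was highest in old PBS 2, where Apoe was lowest, and the part of liver or brain RNA in the Apoe level was not tested.

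Lpl (ENSMUSG00000015568), the lipase that frees fatty acids from lipoproteins, had the opposite order. Its levels were 444, 540 and 344 CPM in young PBS, 652, 365 and 865 CPM in old PBS, and 465, 420 and 563 CPM in old rMETRNL. Old PBS 2 and 4 were above every other library and old PBS 3 was among the lowest. The log2 fold changes were 0.50 ± 0.33 and -0.38 ± 0.31, with adjusted p of 0.994 and 0.775 in edgeR. Without old PBS 4 they were 0.20 and -0.09. Mature muscle fibre genes were also highest in old PBS 2 and 4, at 126719 and 126096 CPM, and lowest in old PBS 3, at 76060 CPM. Adipocyte markers summed to 116 to 292 CPM in young PBS and 182 to 381 CPM in old rMETRNL. In old PBS 2, 3 and 4 they summed to 215, 298 and 424 CPM, so old PBS 3 was above old PBS 2, unlike for Lpl. Plin4 had the highest level of these markers in every library, at 154, 119 and 275 CPM in old PBS 2, 3 and 4. The mean log2 CPM of the 9 markers was 3.11, 4.38 and 4.07 in these libraries, highest in old PBS 3. In the first comparison 8 of these 9 markers were higher (median log2 fold change 0.63) and in the second 7 were lower (median -0.14). Of these, 1 and 0 reached an unadjusted p of 0.05 in edgeR, beside 3.50% and 4.57% of all genes. No adipocyte marker passed with adjustment by edgeR or DESeq2. The part of fibre or adipocyte RNA in the Lpl level was not tested.

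Plin2 (ENSMUSG00000028494), which coats lipid droplets in many cell types, varied little. Its level was 49.95 to 58.4 CPM in young PBS, 45.5, 54.2 and 69.2 CPM in old PBS 2, 3 and 4, and 53.1 to 58.1 CPM in old rMETRNL. Old PBS alone held both the lowest and the highest library. The log2 fold changes were 0.05 ± 0.19 and -0.04 ± 0.18, with 95% intervals of -0.38 to 0.47 and -0.45 to 0.38, and neither passed the test.

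Ctsd (ENSMUSG00000007891), the main aspartic protease of lysosomes, and Cd63 (ENSMUSG00000025351), a membrane protein of late endosomes and lysosomes, stand for the digestive side. Ctsd was at 314, 318 and 341 CPM in young PBS, 263, 278 and 374 CPM in old PBS, and 280, 296 and 305 CPM in old rMETRNL. The log2 fold changes of Ctsd were -0.09 ± 0.20 and -0.06 ± 0.20 (edgeR adjusted p = 0.994 and 0.960). Cd63 was at 233, 216 and 230 CPM in young PBS, 150, 207 and 198 CPM in old PBS, and 259, 240 and 213 CPM in old rMETRNL. All old PBS libraries had less Cd63 than the other 6, although old PBS 3 at 207 was close to old rMETRNL 3 at 213. The log2 fold changes of Cd63 were -0.29 ± 0.19 and 0.36 ± 0.20, with adjusted p of 0.994 and 0.687 in edgeR.

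Spp1 (ENSMUSG00000029304) encodes osteopontin, a secreted matrix protein that attracts leukocytes. Its levels were 28.8, 30.8 and 55.3 CPM in young PBS, 14.0, 28.1 and 14.8 CPM in old PBS, and 19.97, 53.8 and 42.4 CPM in old rMETRNL. It had the widest range of the 10 genes, the highest library being 3.95 times the lowest. Old PBS 2 and 4 were the lowest libraries, old PBS 3 was just under young PBS 1, and old rMETRNL 1 was below old PBS 3. The log2 fold change was -1.01 ± 0.34 in old against young PBS, with an unadjusted p of 0.0172 and an adjusted p of 0.655 in edgeR. In old rMETRNL against old PBS it was 1.02 ± 0.38, with an unadjusted p of 0.0263 and an adjusted p of 0.531 in edgeR. DESeq2 gave adjusted p of 0.140 and 0.185. Spp1 is also made by bone and osteoclasts, for which a list of 7 markers summed to no more than 5.66 CPM in any library. Bglap reached the highest level of them, 3.05 CPM in young PBS 2, and Ocstamp, Dcstamp and Calcr were at no more than 1.21 CPM. Ctsk, Acp5 and Atp6v0d2, which osteoclasts share with macrophages, are not in that list but among the lysosomal genes below. They ranged over the libraries from 43.6 to 104, 6.23 to 14.6 and 4.41 to 15.2 CPM. The part of bone or osteoclast RNA in the Spp1 level was not tested.

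Lgals3 (ENSMUSG00000050335) encodes galectin 3, a sugar-binding protein released by phagocytes that senses damaged lysosomes. The levels were 70.0, 93.2 and 104 CPM in young PBS, 49.4, 71.7 and 56.0 CPM in old PBS, and 66.6, 109 and 90.9 CPM in old rMETRNL. Old PBS 3 was just above young PBS 1 and old rMETRNL 1, so the groups overlapped by that library. The log2 fold changes were -0.60 ± 0.21 and 0.58 ± 0.22, with unadjusted p of 0.0219 and 0.0292 and adjusted p of 0.695 and 0.543 in edgeR.

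**Figure D2:**
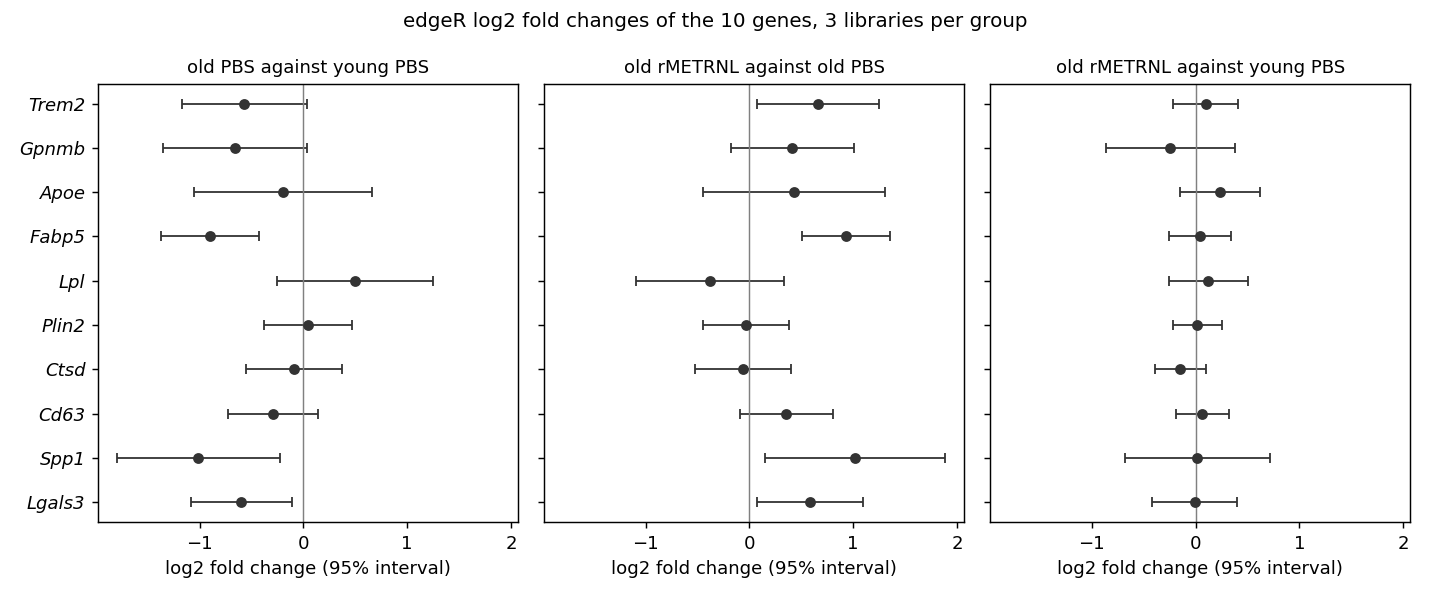
Fitted log2 fold change (horizontal axis) of the 10 genes in the 3 comparisons, each point an edgeR estimate and each bar its 95% interval, with 3 libraries per group. In the first 2 panels Fabp5 (-0.90 and 0.93) and Spp1 (-1.01 and 1.02) lie farthest from 0, and in the third every interval includes 0.

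Old PBS 3 stood apart from the other 2 old PBS libraries for most of these genes. Within old PBS it had the highest level of 7 of the 10 genes, the exceptions being Lpl, Plin2 and Ctsd, which were highest in old PBS 4. Old PBS 2 had the lowest level of all 9 libraries for 8 of the 10 genes. Without old PBS 3, edgeR called 3 of the 10 genes lower in old than in young PBS, where 2.52% of 15884 genes were called. These were Fabp5 (log2 fold change -1.09, edgeR adjusted p = 0.0301), Spp1 (-1.42, adjusted p = 0.0495) and Trem2 (-0.93, adjusted p = 0.0386). In old rMETRNL against the remaining old PBS libraries edgeR called Fabp5, Spp1 and Trem2 higher, at 1.13, 1.43 and 1.02 with adjusted p of 0.00541, 0.0310 and 0.00996, where 9.76% of 15981 genes were called. Without old PBS 2 or old PBS 4, edgeR called none of the 10 in either comparison. With old PBS 3 left out, the remaining 2 old PBS libraries are those with the most brain transcripts, at 14.9 and 25.5 CPM of Snap25, and with the least macrophage marker RNA.

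**Figure D3:**
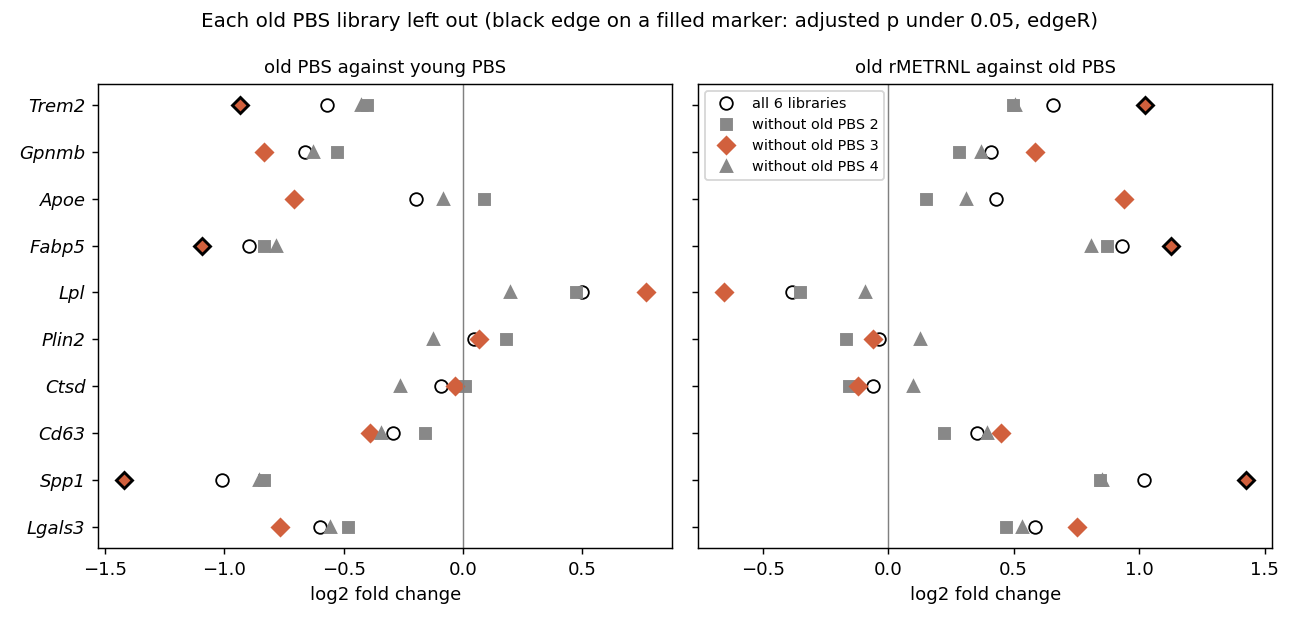
Log2 fold change (horizontal axis) of each gene from edgeR with all 6 libraries (open circle) and with 1 old PBS library left out (square without library 2, diamond without 3, triangle without 4), for the first and second comparisons. Diamonds with a black edge mark an adjusted p under 0.05, reached by Trem2, Fabp5 and Spp1 in both.

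Macrophage markers were set beside these genes. The mean log2 CPM of the 20 macrophage markers was 5.47, 5.65 and 5.71 in young PBS, 5.08, 5.84 and 5.21 in old PBS 2, 3 and 4, and 5.81, 5.74 and 5.57 in old rMETRNL. In the first comparison 17 of the 20 markers were lower and in the second 19 were higher, with median log2 fold changes of -0.18 and 0.26. At an unadjusted p of 0.05 in edgeR, 2 were lower in the first comparison (Cd68 and Mrc1), beside 2.42% of all genes. In the second, 4 were higher (Cd68, Ccr2, Mrc1 and Itgam), beside 3.51%. None of the markers passed with adjustment by edgeR or DESeq2.

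Each gene was then expressed relative to the mean of the macrophage markers in its own library. On this scale, Fabp5 was at -0.08, -0.20 and 0.11 in young PBS, -0.53, -0.85 and -0.79 in old PBS, and -0.27, 0.02 and -0.05 in old rMETRNL. The old PBS libraries were below the other 6, by 0.67 from young PBS and by 0.62 from old rMETRNL (exact permutation test, two-sided, p = 0.1 in both, the smallest p that 3 against 3 can give). For Trem2, Spp1 and Lgals3 the old PBS libraries also lay below all those of young PBS, by 0.39, 0.79 and 0.36 (exact permutation p = 0.1 each). With Fabp5 these are 4 of the 10 genes, beside 2.07% of all tested genes that lay lower in the same way, and in the second comparison Fabp5 was 1 of 10 beside 1.92% that lay higher. The choice of markers changed this: relative to Adgre1, Csf1r and Cd68 alone, the differences between old and young PBS were -0.48 for Fabp5, -0.60 for Spp1, -0.20 for Trem2 and -0.17 for Lgals3. On that scale Fabp5 and Spp1 were the genes of the 10 whose groups did not overlap, beside 0.9% of all genes, and in the second comparison Fabp5, beside 1.11%. Relative to all 20 markers, Trem2, Spp1 and Lgals3 overlapped in old rMETRNL against old PBS, because old rMETRNL 1 was as low as old PBS. Their differences on this 20-marker scale were 0.39, 0.66 and 0.25 (exact permutation p = 0.2, 0.4 and 0.4). The median difference of the 10 genes went from -0.46 to -0.22 in the first comparison and from 0.46 to 0.13 in the second once macrophage markers were subtracted.

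**Figure D4:**
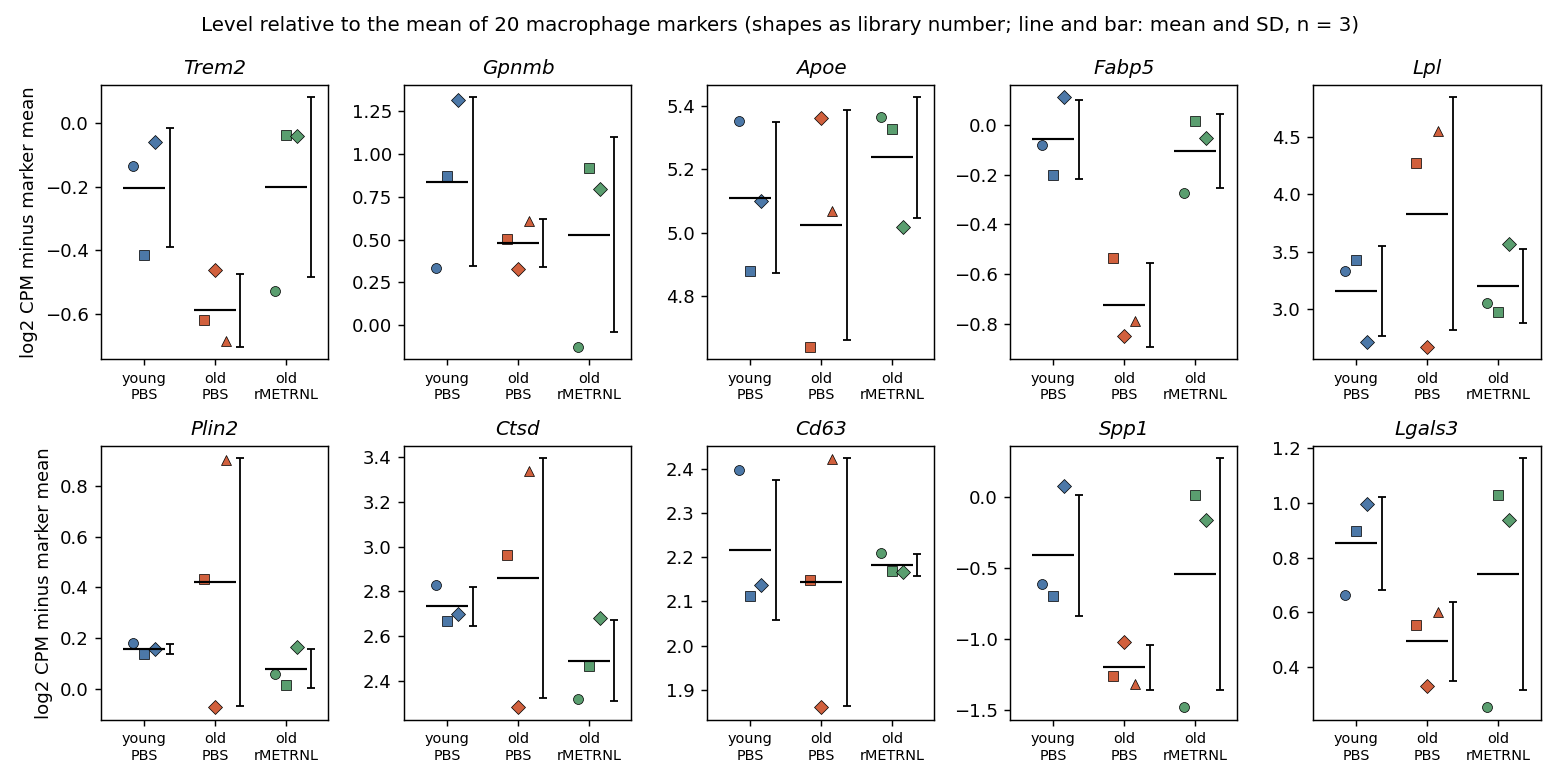
Level of each gene as log2 CPM minus the mean log2 CPM of 20 macrophage markers in the same library (vertical axis), 1 point per library, with group mean and SD (n = 3). For Fabp5 the old PBS libraries lie at -0.85 to -0.53 and the other 6 at -0.27 to 0.11, while for Trem2, Spp1 and Lgals3, the first and last of which depend on the markers subtracted, old rMETRNL 1 lies within or below the old PBS points.

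Marker lists of other cells also differed between groups. Fibro-adipogenic cell genes, of the connective tissue cells that make matrix, summed to 9661 to 13107 CPM in young PBS, 4248 to 7765 in old PBS and 8916 to 14605 in old rMETRNL, most of it Col1a1 and Col3a1, and endothelial genes to 350 to 430, 254 to 359 and 353 to 474 CPM. In the first comparison 6 of 9 and 6 of 6 genes of these lists were lower and 3 of the fibro-adipogenic genes were higher, with median log2 fold changes of -0.28 and -0.30. In the second comparison 9 of 9 and 6 of 6 genes of these lists were higher. Of these, 6 and 2 reached an unadjusted p of 0.05 in edgeR, beside 3.51% of all genes. In the first, 2 of the 9 (Col3a1 and Col1a1) and 1 of the 6 (Kdr) were lower at that threshold, beside 2.42%. None passed with adjustment in edgeR in either comparison. DESeq2 called 1 of the 9, Col3a1, and none of the 6 in each. Genes of other immune cells ran the other way, at 22.5 to 24.1, 34.4 to 38.5 and 24.3 to 32.8 CPM. In the first comparison 8 of 10 tested were higher and in the second 10 of 13 were lower. At an unadjusted p of 0.05 in edgeR, 5 were higher and 5 lower in these comparisons, beside 3.50% and 4.57% of all genes. None passed with adjustment in edgeR, and DESeq2 called 2 and 1 of them. S100a8, called by DESeq2 in both, was at no more than 2.89 CPM in any library. Melanocytes, which make Gpnmb in skin, had 5 markers that summed to 0.181 to 1.45 CPM over the 9 libraries, with Tyr and Tyrp1 at 0 in all of them and Pmel the highest, at up to 0.910 CPM. The part of these cells in the levels of the 10 genes was not tested.

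**Figure D5:**
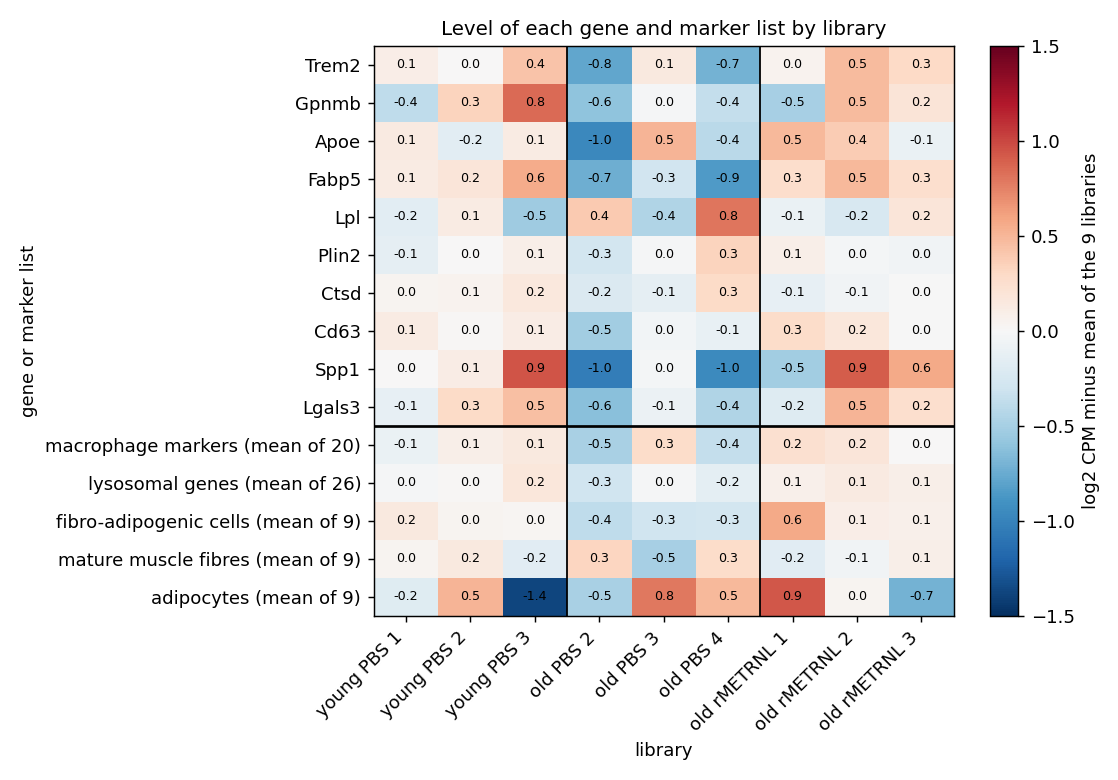
Colour and number give log2 CPM minus the mean of the 9 libraries for the 10 genes (above the line) and for the mean of 5 marker lists (below it), with libraries in columns. Old PBS 2 and 4 are low for Trem2, Fabp5 and Spp1 and for macrophage markers, and old PBS 3 is closer to the other groups.

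The genes that act with Trem2 gave smaller values. Of 8 genes for Trem2 signalling and shedding, 6 of the 7 tested were lower in the first comparison and 5 of 8 higher in the second, and none reached an unadjusted p of 0.05 in edgeR. Tyrobp, the adaptor through which Trem2 signals, was at 41.9, 42.1 and 48.0 CPM in young PBS, 23.1, 41.8 and 34.8 CPM in old PBS, and 49.1, 44.0 and 43.4 CPM in old rMETRNL. All old PBS libraries were below the other 6, old PBS 3 by a margin smaller than the spread within any group.

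The 20 other genes of lipid-associated macrophages gave larger values. Of them, 17 of 20 were lower in the first comparison (median log2 fold change -0.45) and 16 of 19 higher in the second (median 0.46). In edgeR, 6 were lower in the first and 8 higher in the second at an unadjusted p of 0.05, beside 2.42% and 3.51% of all genes. None passed after adjustment in edgeR. DESeq2 called Hmox1 in both. Hmox1, which degrades heme, was at 46.9, 34.1 and 46.7 CPM in young PBS, 22.9, 24.5 and 23.0 CPM in old PBS, and 62.2, 44.3 and 38.5 CPM in old rMETRNL. In Hmox1 old PBS 3 was as low as the other 2 old PBS libraries, unlike in Trem2 and Spp1. Capg, an actin-capping protein of macrophages, was likewise lower in old PBS, at 29.2, 32.7 and 39.9 CPM against 51.5 to 53.8 in young PBS and 49.9 to 55.6 in old rMETRNL. Its log2 fold changes were -0.64 ± 0.16 and 0.64 ± 0.16 (edgeR adjusted p = 0.299 and 0.274).

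Lysosomal genes followed with smaller differences. Of 26 genes, 21 were lower in the first comparison (median log2 fold change -0.21) and 21 higher in the second (median 0.25). In the first, 2 were lower at an unadjusted p of 0.05 in edgeR, Atp6v0d2 and Ctsk, beside 2.42% of all genes. In the second, 3 were higher (Atp6v0d2, Ctsk and Tfe3, beside 3.51%) and 1 was lower (Gaa, beside 4.57% of all genes that were lower). None passed with adjustment by edgeR or DESeq2. Atp6v0d2, a subunit of the lysosomal proton pump found in macrophages and osteoclasts, was at 9.35, 11.5 and 12.9 CPM in young PBS, 7.13, 4.41 and 5.66 CPM in old PBS, and 6.37, 15.2 and 15.2 CPM in old rMETRNL.

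Genes of lipid uptake, storage and efflux showed no common direction. In the first comparison 12 of 23 tested were higher and 11 lower, with a median log2 fold change of 0.08, and in the second 10 were higher and 13 lower, with a median of -0.07. Angptl4, Apoc1 and Cd36 were higher in old than in young PBS at an unadjusted p of 0.05 in edgeR, beside 3.50% of all genes. Lipa was lower, beside 2.42%. At the same threshold in old rMETRNL against old PBS, Lipa was higher, beside 3.51% of all genes. Cd36, Npc1, Pnpla2 and Acsl1 were lower, beside 4.57%. None of the list passed with adjustment by edgeR or DESeq2 in either comparison. Cd36, a fatty acid transporter of muscle fibres, adipocytes and macrophages, was at 211, 210 and 188 CPM in young PBS, 296, 204 and 525 CPM in old PBS, and 175, 163 and 215 CPM in old rMETRNL. Its order over the old PBS libraries was that of Lpl. Lipa, the lysosomal lipase that frees cholesterol from engulfed lipid, was at 56.9 to 69.4 CPM in young PBS, 47.4, 53.2 and 36.0 CPM in old PBS, and 64.1 to 73.3 CPM in old rMETRNL, lower in all old PBS libraries than in the other 6.

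The 10 genes did not vary as 1 block over the 9 libraries. As a description over log2 CPM of libraries that share group and macrophage content, Spp1 and Lgals3 were most alike (Pearson r = 0.960, n = 9), followed by Trem2 with Spp1 (0.925) and Trem2 with Fabp5 (0.924). Lpl ran against Trem2 (r = -0.817). Of all 10951 genes with a mean of at least 5 CPM, the most similar to Trem2 were Tnfaip3, Plod2 and Nup133 (r = 0.973, 0.962 and 0.961), to Fabp5 were Emp1, Abcg3 and P3h1 (0.983, 0.975 and 0.974), and to Spp1 were Pgs1, Lgals3 and Abi1 (0.981, 0.960 and 0.947). For Apoe they were Kcp, Hcls1 and C1qa (0.985, 0.982 and 0.982). For Lpl they were Egf, Clu and Crot (0.981, 0.978 and 0.973).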

How the data were processed

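RNA from injured muscle was sequenced as paired-end reads in 9 libraries. Per the labels and the submitters' processing notes, the authors aligned reads with STAR, to a build named as mm9, and counted them with featureCounts. The deposited values are whole-number counts per Ensembl gene, with no normalization. Versions, annotation and strand setting are not given in the sources used here. Symbols were matched for 54409 of 54532 identifiers. Here, filterByExpr, TMM scaling and edgeR 4.0.16 quasi-likelihood tests (R 4.3.3) were run on the 6 libraries of each comparison, with Benjamini-Hochberg adjustment over all tested genes. DESeq2 1.42.0 was an alternative. CPM uses TMM factors over 9 libraries, and log2 CPM a prior count of 2. The edgeR script was tested on simulated data. Library totals of 16238700 to 22522560 counts put 3 counts at 0.131 to 0.202 CPM. Exon lengths came from GENCODE vM21, and promoters from RefSeq on GRCm38.p6. The promoter windows carry that build's coordinates. None are given for the counted genes, because the build of the counts could not be settled. The 10 genes and all other lists were chosen with earlier results of these data known. All 10 genes are named, with up to 3 genes of lowest p from each other list in a comparison. Genes named as passing an unadjusted p beyond those were chosen after their values were seen.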

Additional observations from a re-analysis of the deposited data

How the results depend on the processing

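Of the 10 genes, edgeR called 0 in each comparison. In old against young PBS, and in old rMETRNL against old PBS, DESeq2 called 1 (Fabp5) and a fit with no filter on low counts called 2 (Fabp5 and Spp1). Leaving out each library in turn gave 0 to 3 in both comparisons, the 3 being reached without old PBS 3. All settings gave 0 in old rMETRNL against young PBS. DESeq2 size factors, a minimum of 10 counts in every library and a fit of all 9 libraries kept the count at 0. Over all genes, edgeR called 10, 17 and 0 genes in the 3 comparisons, no filter gave 354, 740 and 132, DESeq2 265, 357 and 0, the fit of 9 libraries 63, 71 and 0, and the minimum of 10 counts 3, 1 and 0. Leaving out a library gave 2 to 401, 3 to 1560 and 0 to 1 genes. The labels' numbers are shared in part across groups, with no clear pairing of the libraries. Correlations of same-numbered deviations were 0.11 and 0.41, -0.05 and -0.32, and 0.02, -0.05 and -0.18 in the 3 comparisons. Of the old rMETRNL libraries, 0 of 3 correlated best with their own number in young PBS. The count was also 0 in old PBS, where old rMETRNL 1 had no library of its number and could not match. Both old PBS libraries whose number occurs in young PBS did correlate best with it, a hint from 2 libraries that the labels do not explain. With the replicate block, 0 of the 10 genes were called in each comparison, and 11, 65 and 0 genes in all. The signs of small log2 fold changes were not stable. With the replicate block, Plin2 was at -0.19 in old against young PBS and 0.10 in old rMETRNL against old PBS, Lpl at 0.18 and -0.013 in these comparisons, Ctsd at 0.14 in the latter, and Spp1 at -0.035 in old rMETRNL against young PBS. Leaving out libraries gave Apoe -0.71 to 0.087, Plin2 -0.13 to 0.18 and Ctsd -0.26 to 0.0079 in the first comparison, and Plin2 -0.17 to 0.13 and Ctsd -0.16 to 0.10 in the second. With no change of sign, Gpnmb ranged from -0.92 to -0.33, Spp1 from -1.42 to -0.65, Cd63 from -0.39 to -0.16 and Lpl from 0.20 to 0.77 in the first, and Gpnmb from 0.19 to 0.64, Cd63 from 0.22 to 0.45 and Lpl from -0.65 to -0.09 in the second. In the third it gave Trem2 -0.0061 to 0.23, Gpnmb -0.51 to 0.086, Fabp5 -0.045 to 0.19, Lpl -0.029 to 0.29, Plin2 -0.046 to 0.069, Spp1 -0.29 to 0.38 and Lgals3 -0.18 to 0.16. The cause was not tested.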
